A study of Mus musculus with 18 samples.

Results

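Ribosome biogenesis takes place in the nucleolus. RNA polymerase I transcribes a long precursor of the ribosomal RNAs there, small nucleolar ribonucleoproteins (snoRNPs) modify and fold it, and a large set of assembly factors cut it, pack it with ribosomal proteins and send the small and large subunits to the cytoplasm. The process consumes much of a growing cell's transcription, and its genes are known to rise together when cells prepare to grow or divide, with the transcription factor MYC as a well known activator. In epidermis, the basal keratinocytes divide and so need new ribosomes, and so do cells that close a wound. The 48 genes described here are nucleolar assembly factors, listed by symbol, and 45 of them had a row on the arrays that named a single gene. They were placed by role: 2 of 3 proteins of the C/D box snoRNPs, 4 of 4 of the H/ACA box snoRNPs, 6 of 7 nucleolar scaffold proteins and helicases, both large subunits of RNA polymerase I, 17 of 18 factors of the small subunit (the SSU processome and what follows it) and 14 of 14 factors of the large subunit. Fbl and Tsr1 were found only in rows that name several genes, Npm3 had no row, and none of these 3 was given a value. A gene with several rows was read from its most variable row. The whole table holds 33793 rows, of which 23521 name 1 gene.

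RNA came from epidermal sheets of shaved back skin of female mice on a mixed B6;129 background, read on 18 Affymetrix arrays. The mutant genotype was the AhR-/- line B6.129-AhRtm1Bra/J (KO), which carries a germline null allele of the aryl hydrocarbon receptor not limited to a cell type, and the control genotype its AhR+/+ littermates (WT); the ages were not given in the labels. The aryl hydrocarbon receptor (AhR) is a transcription factor that binds small molecules and pairs with ARNT on DNA. Skin was unstressed (0 h), or had been tape-stripped with adhesive film, which takes off the outer cornified layers, 6 h or 24 h earlier, with 3 arrays in each of the 6 groups. The labels name separate replicates and littermates, so each array was treated as a separate sample. Pooling of animals is not mentioned, and p-values measure the spread between these samples, which may be technical. Values are on a log scale taken as log2, and each row had been centred on its median over the 18 arrays. A value of 0 is therefore that gene's middle array, values carry no level of expression, and no gene's level was set against another's. A natural log could not be told from log2 by the values, and would make every difference larger by 1 common factor on the log2 scale.

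The deleted gene was read first. Ahr read -0.13, 0.04 and -0.02 in KO and 0.63, 0.16 and 0.07 in WT at 0 h. At 6 h it read -0.63, -0.65 and -0.77 in KO and 0.06, 0.58 and 0.64 in WT, and at 24 h -0.59, -0.74 and -0.64 in KO and -0.01, 0.12 and 0.01 in WT. Every KO array lay below every WT array of its time, and the difference at 6 h, -1.11 log2 (SE 0.143, limma adjusted p = 0.00549), passed the test. Neither the 0 h difference, -0.32, nor the 24 h one, -0.70, passed (limma adjusted p = 0.556 and 0.22). The Ahr row also changed within KO after tape stripping, by -0.65 to 6 h and -0.62 to 24 h. Both falls passed (limma adjusted p = 0.0209 and 0.0147), while the WT changes, 0.14 and -0.25, did not. Every unstressed KO array thus lay above every later KO array for the deleted gene. Changes from 0 h in KO, and the genotype comparison in unstressed skin, rest on those arrays. The cause was not tested. Whether the row reads only the deleted part of the gene is not known, so these readings are a partial check of the labels. Means of epidermal T cell markers lay lower in KO at every time, with 3, 4 and 1 of 6 measured genes passing at 0, 6 and 24 h and list means of -1.17 to -0.36 in KO against 0.37 to 0.81 in WT at 0 h, -0.72 to -0.27 against 0.64 to 0.77 at 6 h and -0.89 to -0.84 against 0.18 to 0.79 at 24 h. Means of 5 suprabasal keratinocyte markers at 6 h ran from -0.57 to -0.19 in KO and from -0.03 to 0.36 in WT (1 of 5 passed, lower), and means of 5 basal keratinocyte markers from -0.08 to 0.20 and 0.00 to 0.11 (0 passed). Whether a marker is present at all cannot be read from centred values. Arrays are of bulk tissue, in which fewer cells of a type and less RNA per cell cannot be told apart. A single array stood apart for the genes described here: KO replicate 1 at 6 h. Its mean over 8 neutrophil and monocyte markers was 0.64, against 0.03 and 0.13 in the other KO arrays at 6 h. Counts of passing genes are also given without it.

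Promoter sequence was looked at because most of these genes shared an order of group means, as described with the values. RefSeq promoter windows (assembly GRCm38.p6, from 250 bases before to 50 bases after an annotated start) were found for 42 of the 48 genes, 47 windows on 16 chromosomes, and 6 genes had no entry. A set of 3 motifs was searched on both strands: CACGTG, the E-box bound by MYC and its partners; GCGTG, the core of the site bound by AhR and ARNT; and TNGCGTG, a longer form of that core, which contains it. The E-box does not contain the AhR core. The E-box lay in 8 of 47 windows, 17.0%, against 7.15% of all 32851 windows, 8.07% of windows of genes on the array and 9.28% of windows with a GC content within the quartiles of this set. The AhR core lay in 31 of 47, 66.0%, against 32.4%, 39.0% and 43.3%, and its longer form in 8 of 47, 17.0%, against 5.07%, 6.05% and 7.02%. The windows of this set had a median GC content of 59.3% against 52.7% over all windows, and a median of 22 CpG pairs against 7, so the shares differ in base composition as well. Windows of genes on the array had a median of 13 CpG pairs, and those chosen by GC content 14. Each of the 3 motifs contains a CpG, and none of the sets compared was matched for CpG. A match is a run of letters and no measure of binding. The sequences around the 8 E-boxes follow, with up to 12 bases on either side, read 5′ to 3′ on the gene's strand and with the motif in capitals. Among these genes Utp4, Utp20 and Mybbp1a passed the test in some comparison, while Wdr43, Nol11, Nop2 and Pes1 did not, and Tsr1 was not measured. Of all 45 genes measured, with or without an E-box, 19 passed in some comparison. Whether the E-box bears on the response was not tested.

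Utp4, chr8:106893643-106893672, plus strand: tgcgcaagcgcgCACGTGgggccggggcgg
Utp20, chr10:88826765-88826789, minus strand: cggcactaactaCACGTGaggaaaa
Wdr43, chr17:71616220-71616249, plus strand: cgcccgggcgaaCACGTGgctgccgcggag
Nol11, chr11:107189407-107189436, minus strand: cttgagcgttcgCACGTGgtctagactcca
Mybbp1a, chr11:72441355-72441376, plus strand: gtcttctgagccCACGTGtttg
Nop2, chr6:125131811-125131840, plus strand: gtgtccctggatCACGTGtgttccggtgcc
Pes1, chr11:3963965-3963994, plus strand: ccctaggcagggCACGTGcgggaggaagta
Tsr1, chr11:74898092-74898121, plus strand: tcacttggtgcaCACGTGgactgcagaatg

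In Utp4 the motif begins 15 bases after the annotated start, in Utp20 37, in Wdr43 17, in Mybbp1a 40, in Pes1 2 and in Tsr1 24, and in Nol11 and Nop2 it begins 43 and 60 bases before the start. Both the E-box and the AhR core were found in 6 genes. Of the 4 genes whose response to tape stripping differed between genotypes by the test given below (Utp4, Ddx21, Gar1 and Dkc1), Gar1 and Ddx21 hold the AhR core and no E-box. Dkc1 holds neither in its window. The 250 bases before the start of Gar1 and of Ddx21 are given with the AhR core in capitals, which on the gene's strand reads CACGC, the reverse complement of GCGTG.

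Gar1, chr3:129831397-129831646, minus strand: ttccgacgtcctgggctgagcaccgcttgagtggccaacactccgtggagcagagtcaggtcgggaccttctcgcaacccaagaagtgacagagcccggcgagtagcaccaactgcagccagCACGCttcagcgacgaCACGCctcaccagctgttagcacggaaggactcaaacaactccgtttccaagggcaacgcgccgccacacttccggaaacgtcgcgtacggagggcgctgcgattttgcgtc
Ddx21, chr10:62602299-62602548, minus strand: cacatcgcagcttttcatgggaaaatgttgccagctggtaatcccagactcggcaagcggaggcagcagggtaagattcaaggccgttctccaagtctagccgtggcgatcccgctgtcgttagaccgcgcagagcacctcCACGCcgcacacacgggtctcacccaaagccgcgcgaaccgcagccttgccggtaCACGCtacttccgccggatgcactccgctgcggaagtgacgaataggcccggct

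In Gar1 the matches shown begin 128 and 112 bases before the start, and in Ddx21 109 and 54. The whole window of each gene holds 3 AhR cores, the third beyond the stretch shown.

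Before tape stripping the values of these genes lay lower in KO than in WT epidermis, and 6 h and 24 h after it they lay higher. The median over the 45 genes was -0.25, -0.20 and -0.09 in the KO arrays at 0 h and 0.03, 0.11 and 0.22 in the WT arrays. At 6 h it was 0.51, 0.16 and 0.13 in KO and 0.06, -0.11 and -0.03 in WT. At 24 h it was 0.15, 0.07 and -0.03 in KO and -0.26, -0.09 and -0.09 in WT. At every time the 3 arrays of one genotype lay on one side of the 3 of the other, below at 0 h and above at 6 h and 24 h. The number of the 45 genes above their own 18-array median was 6, 6 and 11 in the KO arrays at 0 h, 26, 33 and 42 in WT, 45, 34 and 31 in KO at 6 h and 30, 14 and 15 in WT. The array medians scattered about their group means with an SD of 0.118. The KO mean lay below WT at 0 h and lay above it at 6 h in 43 of the 45 genes, a pattern of means that 28.1% of all 23521 rows showed, and in 38 it lay above WT at 24 h too (16.9% of all rows). These comparisons use different arrays at each time. The genes varied more than most: their median SD over the 18 arrays was 0.292 log2, against 0.136 over all rows, which were not filtered on signal, while 6 of the 45 were read from the most variable of several rows.

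**Figure D1:**
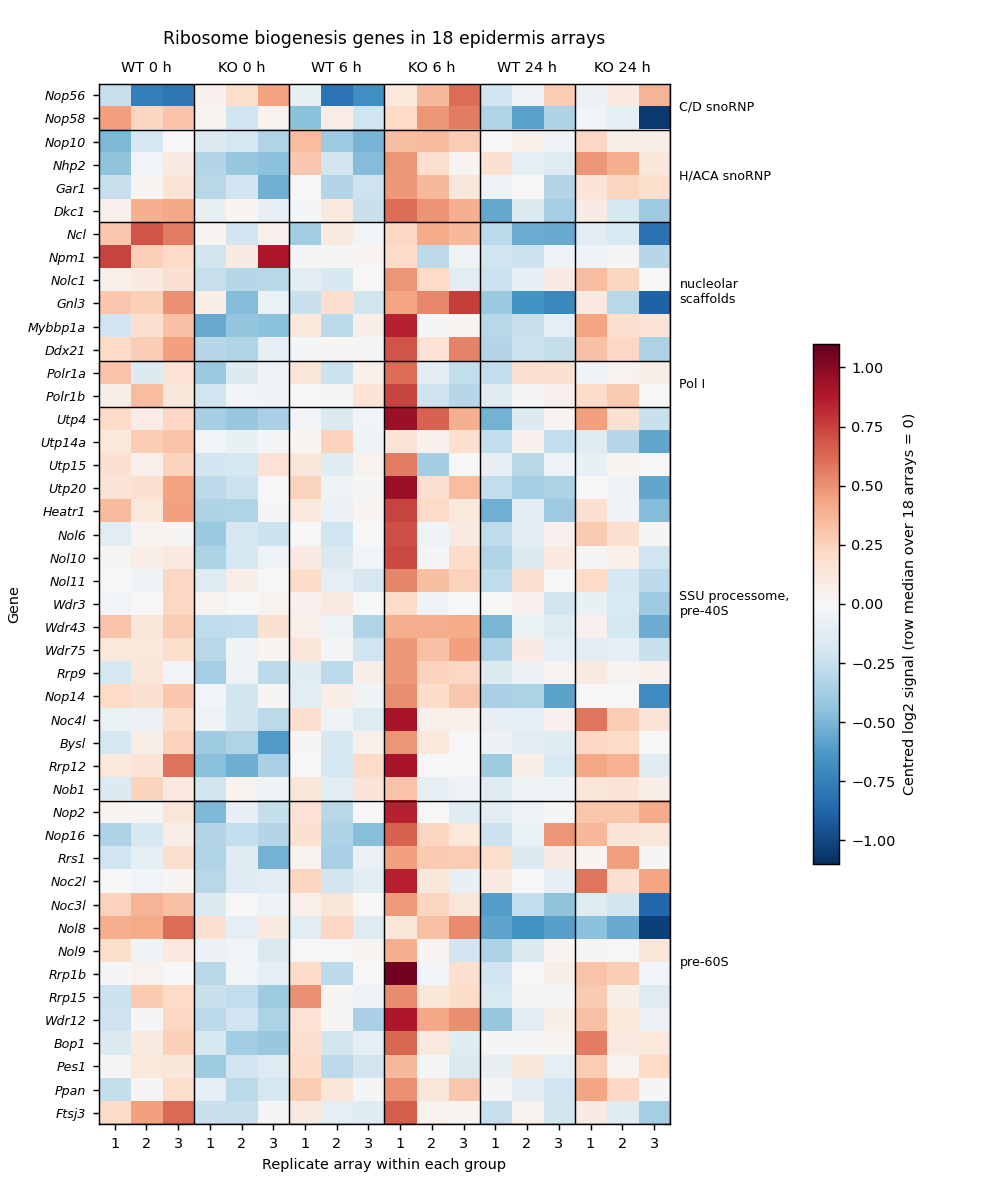
Centred log2 signal of the 45 genes (rows, grouped by role) in the 18 arrays (columns, 3 replicates for each genotype and time). Red is above and blue below a gene's median over the 18 arrays: the KO columns at 0 h are mostly blue, all 45 genes are above 0 in KO replicate 1 at 6 h, and the WT columns at 24 h are mostly blue.

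**Figure D2:**
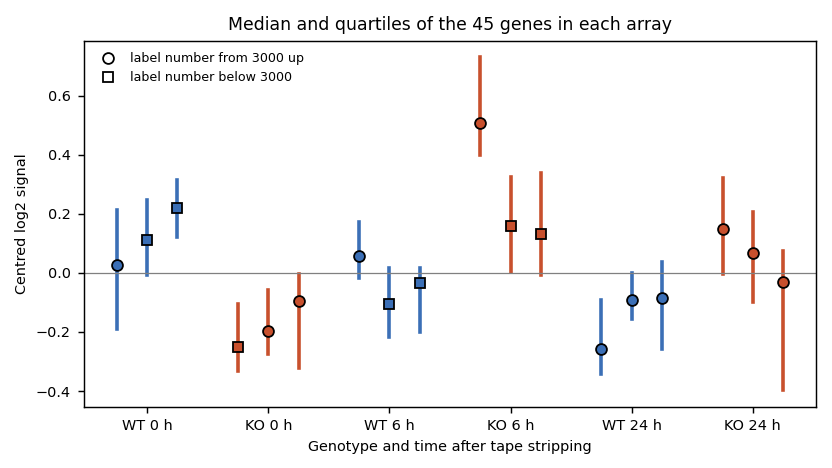
Median (point) and quartiles (bar) of the 45 genes' centred log2 signal in each of the 18 arrays, by genotype and time, KO in red and WT in blue. Squares mark arrays whose label number is below 3000. KO arrays lie below WT arrays at 0 h and above them at 6 h and 24 h, and KO replicate 1 at 6 h, at 0.51, is the highest.

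The genotypes were first compared in unstressed skin. KO minus WT was below 0 in 44 of 45 genes, the exception being Nop56; over all rows 48.5% were above 0. Its median over the genes was -0.30 log2, and single genes ran from -0.74 (Rrp12) to 0.83 (Nop56). No gene passed at an adjusted p under 0.05 in limma's moderated test, where 0.085% of all rows passed as lower in KO. The smallest adjusted p was 0.204, for Nop56. At an unadjusted p under 0.05, 21 genes were lower in KO (4.66% of all rows were) and 1 was higher (3.82%). In 27 of the 45, every KO array lay below every WT array, which was so for 7.71% of all rows. With array weights 4 genes passed, Nop56, Ddx21, Bysl and Ftsj3. Leaving out any 1 array kept the median between -0.34 and -0.26. The lower T cell markers of KO at 0 h stand beside this result, as do 5 suprabasal keratinocyte markers (1 passed, lower, list median of differences -0.16) and 5 basal ones (none passed, 3 lower without overlap, median -0.24), and their part in it was not tested. So do 6 Langerhans cell markers, none of which passed: all 6 differences were below 0, with list means of -0.64 to 0.09 in KO and -0.16 to 0.23 in WT. All 4 melanocyte markers were below 0 too, with a median of -0.32 and none passing.

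At 6 h after tape stripping KO minus WT was above 0 in 44 of the 45 genes, with a median of 0.34 log2, and in 52.5% of all rows. Npm1, at -0.05, was the exception. The test was passed by 5 genes, all higher: Utp4, Nop56, Rrp9, Wdr75 and Wdr12; 0.366% of all rows passed as higher. In 17 genes every KO array lay above every WT array, against 7.42% of all rows. The count of passing genes moved with single arrays. It was 0 when replicate 2 or 3 of either genotype was left out, 1 (Nop56) on leaving out KO replicate 1 and 7 on leaving out WT replicate 1. After a second quantile normalisation 1 gene passed, and with the compared groups fitted alone 0. Without KO replicate 1 the median was 0.13. The labels also give each array a 4-digit number of unknown meaning, and the arrays split at 3000. Among arrays below 3000 the median at 6 h was 0.19 with 9 genes passing, and among those from 3000 up, 1 array of each genotype, it was 0.49. Suprabasal keratinocyte markers were lower in KO at 6 h (median difference -0.55). T cell markers had medians of -1.43, -1.24 and -1.56 at 0, 6 and 24 h. The part of these 2 lists in the result at 6 h was not tested. All 6 Langerhans cell markers had differences above 0 at 6 h, with a median of 0.21; none passed, and their part was not tested either. At 24 h 40 of 45 differences were above 0 (49.7% of all rows), with a median of 0.20. No gene passed at 24 h (0.0128% of all rows passed as higher), 6 were higher at an unadjusted p under 0.05 (3.08%), and in 9 the KO arrays lay above all WT arrays (6.36%). Of 8 neutrophil and monocyte markers 7 had differences above 0 at 24 h (median 0.30, 4 higher without overlap). All 5 suprabasal and all 4 melanocyte markers were below 0 there (medians -0.33 and -0.36). Of 7 proliferation markers 4 were above 0 and 3 below (median 0.12), with 3 higher at an unadjusted p under 0.05 and 2 higher without overlap. None of these markers passed, and their part in it was not tested.

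**Figure D3:**
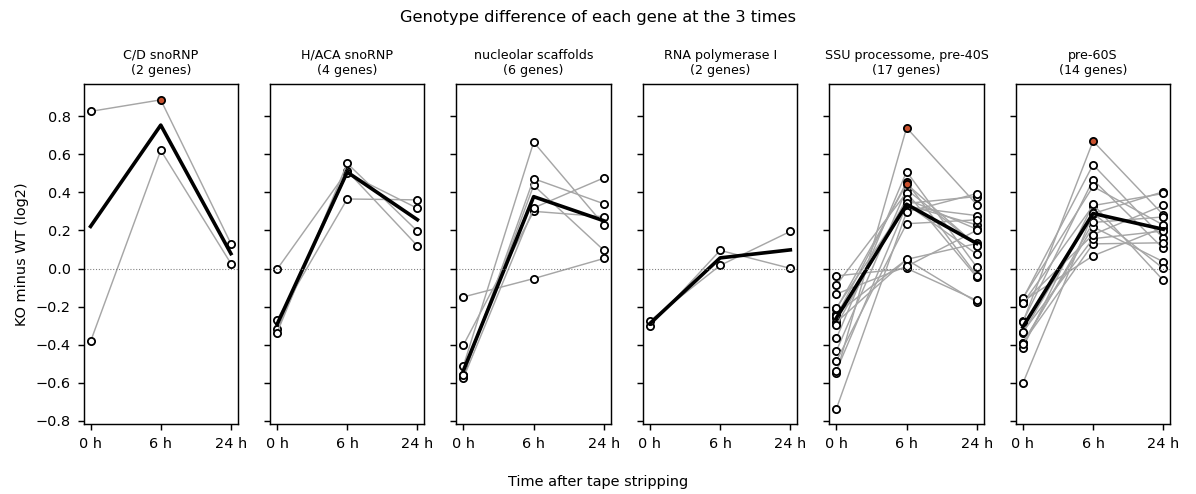
KO minus WT difference (log2) of each gene at 0, 6 and 24 h, in 6 panels by role. Grey lines join the values of a gene, the black line is the median of the role, and red points passed limma's test. In every panel the median at 6 h lies above that at 0 h.

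Within each genotype the question is what tape stripping changed. In KO epidermis the difference between 6 h and 0 h was above 0 in 44 of 45 genes (56.6% of all rows), with a median of 0.52, and 13 rose by the test: Utp4, Wdr12, Gar1, Rrp9, Bysl, Wdr75, Ddx21, Rrs1, Dkc1, Nolc1, Mybbp1a, Ppan and Utp20. Of all rows 1.57% rose. In 34 genes the 3 arrays at 6 h all lay above the 3 at 0 h, against 11.9% of all rows. Without KO replicate 1 at 6 h the median was 0.36 and 8 genes passed; without KO replicate 3 at 6 h 7 did, and without replicates 1, 2 and 3 of KO at 0 h 8, 6 and 4. With 1 array left out at a time, Utp4 and Wdr12 passed in 6 of 6 fits, Gar1, Rrp9 and Bysl in 5, Wdr75, Ddx21 and Rrs1 in 4, Mybbp1a in 2, Nolc1, Ppan and Utp20 in 1, and Dkc1 in 0. With the compared groups fitted alone 7 genes passed. This comparison shares its KO arrays with the comparisons of the genotypes. In the same comparison all 6 Langerhans cell markers were above 0 (median 0.44, none passing, 4 at an unadjusted p under 0.05, where 9.2% of all rows were higher), and of 5 suprabasal keratinocyte markers 1 fell (median -0.31); their part in it was not tested. In WT the same comparison gave a median of -0.13, with 4 of 45 differences above 0 (53.7% of all rows). No gene passed and 0% of all rows passed as lower. At an unadjusted p under 0.05, 6 genes were lower (2.02%), and in 13 the arrays at 6 h lay below those at 0 h (3.79%). All 4 melanocyte markers were also below 0 in this WT comparison (median -0.67), 3 at an unadjusted p under 0.05. None of the 4 passed, and their part in it was not tested. Among WT arrays with label numbers from 3000 up, 1 at each time, the median was 0.07, and among those below 3000 -0.25.

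The responses of the genotypes were then compared directly, as the change from 0 h to 6 h in KO minus that in WT. This difference was above 0 in 45 of 45 genes (53% of all rows), with a median of 0.64. It passed in 4 genes, Utp4, Ddx21, Gar1 and Dkc1, where 0.234% of all rows passed as higher, and 32 genes had an unadjusted p under 0.05 (5.03%). The mean at 6 h lay above that at 0 h in KO and below it in WT in 40 genes, and in 25.7% of all rows. The 6 Langerhans cell markers also had differences above 0, with a median of 0.54, 3 at an unadjusted p under 0.05 and none passing. The comparison shares its arrays with those above and repeats part of their evidence. The number passing was 1 without KO replicate 1 at 6 h, with a median of 0.51. It was 2 without KO replicate 2 and 2 without KO replicate 3 at 6 h. It was 0 without any 1 of the 3 KO arrays at 0 h, 0 without WT replicate 2 or 3 at 0 h, and 0 without WT replicate 2 or 3 at 6 h. It was 10 without WT replicate 1 at 0 h and 7 without WT replicate 1 at 6 h. Array weights gave 15 and a robust fit 1. The median stayed, with each array left out, between 0.51 and 0.73.

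At 24 h the changes from 0 h differed between genes. All arrays at 24 h have label numbers from 3000 up, while those at 0 h and 6 h lie on both sides of 3000. Changes to 24 h therefore cannot be told apart in full from label number. At 0 h more WT than KO arrays have numbers below 3000. In KO 6 genes stood higher than at 0 h by the test (Bysl, Gar1, Nhp2, Nolc1, Mybbp1a and Bop1; 3.09% of all rows rose) and Nol8 stood lower (6.47% of all rows fell), with 30 of 45 above 0 (59% of all rows) and a median of 0.26. In 25 the arrays at 24 h all lay above those at 0 h (15.8%). In WT the median was -0.19, 6 of 45 were above 0 (54.9%), and 1 gene, Nol8, fell (0.0298% of all rows did); in 20 genes the arrays at 24 h all lay below those at 0 h (8.43%). Nol8 in WT was lost from the calls when any 1 array was left out. From 6 h to 24 h in KO 5 genes fell, Nol8, Wdr75, Dkc1, Noc3l and Gnl3 (0.616% of all rows), 7 of 45 were above 0 (51.6%), and 16 did not overlap in the lower direction (9.02%). In WT from 6 h to 24 h none passed, as with 0% of all rows, and 7 were lower at an unadjusted p under 0.05 (4.5%). The number that passed in KO from 0 h to 24 h was 3 without KO replicate 2 at 0 h, 1 without replicate 3, and 3 without replicate 1 or 2 at 24 h. From 6 h to 24 h it was 1 and 0 without KO replicate 2 and 3 at 6 h, and 3 and 1 without KO replicate 2 and 3 at 24 h. The genotype difference in the change from 0 h to 24 h had a median of 0.51, with 43 of 45 above 0 (50.9%). None passed (0% of all rows passed as higher) and 26 had an unadjusted p under 0.05 in the higher direction (4.62%). For the change from 6 h to 24 h none passed, as with 0% of all rows, and 4 genes had an unadjusted p under 0.05 in the lower direction (2.43%). Means at 24 h lay above 0 h in KO and below it in WT for 25 genes (20% of all rows) and below 0 h in both for 14 (25.1%). Of 7 proliferation markers measured 4 rose in KO from 0 h to 24 h (list median 0.57), while from 0 h to 6 h none of the 7 passed and their median was -0.17. In WT from 0 h to 24 h none of the 7 passed, with 4 above 0, 3 below and a median of 0.24. At an unadjusted p under 0.05, 3 were higher in WT (1373 of all 23521 rows were), and 3 were higher without overlap. From 0 h to 24 h in KO 2 of 8 neutrophil and monocyte markers also rose (median 0.40), 1 of 5 suprabasal markers rose and 2 fell, and 1 of 5 basal markers rose and 1 fell; the part of these cells in the result was not tested.

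The C/D box snoRNPs carry guide RNAs that direct ribose methylation of ribosomal RNA, and Nop56 and Nop58 are their paired core proteins. Nop56 at 0 h read 0.05, 0.20 and 0.44 in KO and -0.26, -0.75 and -0.79 in WT. Nop56 at 6 h read 0.12, 0.35 and 0.62 in KO and -0.08, -0.81 and -0.67 in WT. Nop56 at 24 h read -0.07, 0.11 and 0.37 in KO and -0.21, -0.05 and 0.28 in WT. Nop56 stood apart from the rest of the genes: at 0 h and at 6 h all 3 KO arrays lay above all 3 WT arrays. Its difference at 6 h was 0.89 log2 (SE 0.204, limma adjusted p = 0.0387), and at 0 h 0.83 (adjusted p = 0.204). The array has 3 rows for Nop56, and they differ: KO minus WT at 0 h was -0.41, 0.39 and 0.83 in the 3 rows, and at 6 h 0.39, 0.43 and 0.89, the last of each being the row used. The mean over the rows did not pass at 6 h. Nop56 is also known as a host gene of small nucleolar RNAs. Nop58, in contrast, read 0.03, -0.22 and 0.04 in KO and 0.45, 0.24 and 0.31 in WT at 0 h, and 0.22, 0.48 and 0.57 in KO and -0.45, 0.08 and -0.22 in WT at 6 h. Its KO arrays were all below WT at 0 h and all above at 6 h, with differences of -0.38 (adjusted p = 0.695) and 0.62 (adjusted p = 0.147) that did not pass. Nop58 at 24 h read -0.03, -0.10 and -1.05 in KO and -0.33, -0.59 and -0.34 in WT, and the lowest of these, KO replicate 3, stands far below the other KO arrays.

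The H/ACA box snoRNPs turn selected uridines of ribosomal RNA into pseudouridine; Dkc1 (dyskerin) is the enzyme, and Gar1, Nhp2 and Nop10 are its partners, which also sit on telomerase RNA. Gar1 at 0 h read -0.30, -0.21 and -0.53 in KO and -0.25, 0.02 and 0.15 in WT. Gar1 at 6 h read 0.47, 0.35 and 0.12 in KO and 0.00, -0.33 and -0.23 in WT. Gar1 at 24 h read 0.15, 0.23 and 0.19 in KO and -0.05, 0.00 and -0.32 in WT. In Gar1 the KO arrays at 6 h lay above all WT arrays of that time and above every KO array at 0 h, and the KO arrays at 24 h did the same. Gar1 rose in KO by 0.66 log2 at 6 h (1.58-fold, SE 0.125, adjusted p = 0.0126) and by 0.54 (adjusted p = 0.0154) at 24 h. Its response differed between genotypes by 0.82 log2 (SE 0.177, limma adjusted p = 0.0488), while KO minus WT at 6 h, 0.50 (adjusted p = 0.0522), missed the threshold. Dkc1 at 0 h read -0.08, 0.02 and -0.09 in KO and 0.05, 0.39 and 0.42 in WT. Dkc1 at 6 h read 0.61, 0.49 and 0.40 in KO and -0.02, 0.11 and -0.24 in WT. Dkc1 at 24 h read 0.09, -0.18 and -0.40 in KO and -0.57, -0.15 and -0.36 in WT. Dkc1 in KO lay below WT at 0 h and above it at 6 h with no overlap, and its KO arrays at 24 h lay below those at 6 h. Its rise in KO at 6 h was 0.55 (adjusted p = 0.0341), the genotype difference of that change 0.89 log2 (SE 0.194, limma adjusted p = 0.0497), and the fall from 6 h to 24 h in KO -0.66 (adjusted p = 0.0313). Nhp2 read -0.32, -0.42 and -0.45 in KO and -0.44, -0.03 and 0.09 in WT at 0 h, 0.49, 0.19 and 0.03 in KO and 0.29, -0.20 and -0.48 in WT at 6 h, and 0.48, 0.40 and 0.12 in KO and 0.17, -0.10 and -0.14 in WT at 24 h. In Nhp2 the KO arrays at both later times lay above those at 0 h, but they overlapped WT at each time. Nhp2 rose by 0.73 (adjusted p = 0.0216) from 0 h to 24 h in KO, and the change at 6 h was 0.63 (adjusted p = 0.0608). Nop10 did not pass in any comparison; KO minus WT was 0.00 at 0 h and 0.51 at 6 h.

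Among the scaffold proteins and helicases of the nucleolus, Ddx21 is a DEAD-box helicase that binds both ribosomal DNA and RNA. Ddx21 at 0 h read -0.31, -0.33 and -0.09 in KO and 0.22, 0.27 and 0.45 in WT. Ddx21 at 6 h read 0.69, 0.16 and 0.55 in KO and -0.02, 0.02 and -0.02 in WT. Ddx21 at 24 h read 0.32, 0.23 and -0.35 in KO and -0.32, -0.24 and -0.26 in WT. Its KO and WT arrays did not overlap at 0 h, where KO was lower, or at 6 h, where KO was higher, and at 24 h KO replicate 3 fell below the WT arrays while the other 2 lay above. Ddx21 rose in KO at 6 h by 0.71 log2 (1.64-fold, SE 0.151, adjusted p = 0.0183), against -0.32 (adjusted p = 1) in WT, and the difference between these changes was 1.03 log2 (SE 0.214, limma adjusted p = 0.0454). A second row of Ddx21 gave other values: 0.43 (adjusted p = 0.119) in KO, 0.21 (adjusted p = 1) in WT and a genotype difference of 0.22 (adjusted p = 0.753), none of which passed. Nolc1 is a phosphoprotein that chaperones snoRNPs. Nolc1 read -0.25, -0.31 and -0.31 in KO and 0.05, 0.11 and 0.16 in WT at 0 h, 0.48, 0.22 and -0.11 in KO and -0.12, -0.18 and -0.01 in WT at 6 h, and 0.34, 0.23 and 0.01 in KO and -0.24, -0.09 and 0.09 in WT at 24 h. All KO arrays of Nolc1 at 0 h were below WT, and the KO arrays at 6 h and 24 h all lay above the KO arrays at 0 h. It rose in KO by 0.49 (adjusted p = 0.0369) at 6 h and 0.48 (adjusted p = 0.0242) at 24 h. Mybbp1a, a MYB-binding protein of the nucleolus, has an E-box after its start as shown above. Mybbp1a read -0.56, -0.43 and -0.45 in KO and -0.21, 0.18 and 0.32 in WT at 0 h, 0.85, -0.02 and 0.02 in KO and 0.12, -0.30 and 0.07 in WT at 6 h, and 0.43, 0.18 and 0.14 in KO and -0.31, -0.26 and -0.11 in WT at 24 h. The high array at 6 h was KO replicate 1; the other 2 KO arrays lay within the WT range. Mybbp1a rose in KO by 0.76 (adjusted p = 0.0385) at 6 h, a call lost without KO replicate 1 (0.48, adjusted p = 0.0753), and by 0.73 (adjusted p = 0.0293) at 24 h. Gnl3 (nucleostemin) is a GTP-binding protein abundant in dividing and stem cells. Gnl3 read 0.07, -0.47 and -0.07 in KO and 0.30, 0.26 and 0.50 in WT at 0 h, 0.44, 0.53 and 0.76 in KO and -0.24, 0.18 and -0.20 in WT at 6 h, and 0.10, -0.30 and -0.89 in KO and -0.41, -0.66 and -0.71 in WT at 24 h. Gnl3 was below 0 at 24 h in every array but KO replicate 1, and at 6 h its KO arrays all lay above WT. It fell in KO from 6 h to 24 h by 0.94 log2 (adjusted p = 0.0415). Ncl (nucleolin) and Npm1 (nucleophosmin) are abundant nucleolar proteins and neither passed. KO minus WT of Ncl was -0.56 (adjusted p = 0.3) at 0 h and 0.44 (adjusted p = 0.207) at 6 h, without overlap at either time. Npm1 has 2 rows that differ at 6 h, -0.05 in the one used and 0.40 in the other.

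Polr1a and Polr1b encode the 2 large subunits of RNA polymerase I, which form its catalytic centre. Polr1a read -0.41, -0.15 and -0.03 in KO and 0.31, -0.15 and 0.16 in WT at 0 h, 0.62, -0.11 and -0.27 in KO and 0.13, -0.24 and 0.06 in WT at 6 h, and -0.03, 0.03 and 0.07 in KO and -0.27, 0.17 and 0.17 in WT at 24 h. Polr1b read -0.22, -0.03 and -0.05 in KO and 0.06, 0.34 and 0.12 in WT at 0 h, 0.74, -0.23 and -0.31 in KO and 0.01, -0.01 and 0.15 in WT at 6 h, and 0.20, 0.29 and -0.01 in KO and -0.13, -0.01 and 0.05 in WT at 24 h. In both genes KO replicate 1 at 6 h was the highest of all arrays and the other 2 KO arrays at 6 h lay below 0. Neither passed in any comparison, and KO minus WT at 6 h was 0.10 for Polr1a and 0.02 for Polr1b, with SEs of 0.198 and 0.197. The 14 other genes of RNA polymerase I and its factors had a median of 0.03 at 6 h with none passing. Ubtf, which opens ribosomal DNA for transcription, was the 1 gene of them that rose in KO from 0 h to 6 h, by 0.35 (limma adjusted p = 0.0215). By that test 1.57% of all rows rose. At an unadjusted p under 0.05, 3 of the 14 were higher and 2 lower (2165 and 2712 of all 23521 rows were). From 0 h to 24 h in KO 4 of the 14 fell and none rose, while 6.47% of all rows fell and 3.09% rose.

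The SSU processome is the large particle that forms on the growing precursor around the U3 snoRNA and makes the small subunit. Utp4 belongs to the first module that lands on the precursor, the UTP-A complex. Utp4 at 0 h read -0.37, -0.42 and -0.35 in KO and 0.21, 0.08 and 0.23 in WT. Utp4 at 6 h read 0.95, 0.65 and 0.39 in KO and -0.03, -0.16 and -0.03 in WT. Utp4 at 24 h read 0.45, 0.16 and -0.25 in KO and -0.52, -0.15 and 0.03 in WT. The 3 KO arrays of Utp4 at 0 h lay close to one another and below all WT arrays, and the 3 at 6 h lay above every other array except 1 KO array at 24 h. Utp4 rose in KO by 1.04 log2 at 6 h (2.06-fold, SE 0.167, adjusted p = 0.00852) and was higher than in WT at 6 h by 0.74 log2 (SE 0.167, limma adjusted p = 0.0362). The change in WT was -0.25 (adjusted p = 1), and the difference between the changes, 1.29 log2 (SE 0.236, limma adjusted p = 0.0323), was the largest of the 45 genes. Wdr75 belongs to the same module. Wdr75 read -0.30, -0.04 and 0.02 in KO and 0.12, 0.11 and 0.20 in WT at 0 h, 0.48, 0.33 and 0.45 in KO and 0.13, -0.02 and -0.22 in WT at 6 h, and -0.12, -0.11 and -0.24 in KO and -0.34, 0.09 and -0.10 in WT at 24 h. All KO arrays of Wdr75 lay below WT at 0 h, above it at 6 h and amid it at 24 h. Wdr75 was higher in KO at 6 h by 0.45 log2 (SE 0.111, limma adjusted p = 0.048), rose in KO from 0 h by 0.53 (adjusted p = 0.0173) and fell from 6 h to 24 h by 0.57 (adjusted p = 0.0227). The other members of that module, Utp15, Heatr1, Wdr43 and Nol11, did not pass. KO minus WT at 6 h was 0.05, 0.33, 0.51 and 0.40, and the last 3 did not overlap between genotypes. The array has 3 rows for Nol11, and KO minus WT at 6 h was 0.18 and 0.10 in those not used. In the row at 0.18 the genotypes overlapped.

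Rrp9 binds the U3 snoRNA itself. Rrp9 read -0.38, -0.06 and -0.29 in KO and -0.19, 0.13 and -0.03 in WT at 0 h, 0.48, 0.26 and 0.23 in KO and -0.13, -0.30 and 0.06 in WT at 6 h, and 0.10, 0.03 and 0.05 in KO and -0.15, -0.06 and 0.04 in WT at 24 h. At 6 h the KO arrays of Rrp9 lay above all WT arrays of that time, and at 0 h the genotypes overlapped. Rrp9 was higher in KO at 6 h by 0.44 log2 (SE 0.107, limma adjusted p = 0.0466) and rose from 0 h by 0.56 (adjusted p = 0.0129). Bysl acts late in small subunit assembly and leaves the particle before export. Bysl read -0.39, -0.33 and -0.62 in KO and -0.19, 0.06 and 0.25 in WT at 0 h, 0.49, 0.11 and -0.01 in KO and 0.01, -0.18 and 0.05 in WT at 6 h, and 0.23, 0.21 and 0.01 in KO and -0.06, -0.13 and -0.14 in WT at 24 h. Bysl was low in all KO arrays at 0 h, and at 24 h its KO arrays lay above WT; at 6 h only replicate 1 and 2 did. It rose in KO by 0.64 (adjusted p = 0.015) at 6 h and by 0.59 (adjusted p = 0.0111) at 24 h. Utp20, a large scaffold protein, read 0.94, 0.17 and 0.34 in KO at 6 h and 0.24, -0.05 and 0.02 in WT. Utp20 at 0 h read -0.29, -0.24 and 0.00 in KO and 0.14, 0.19 and 0.44 in WT, and at 24 h 0.00, -0.04 and -0.57 in KO and -0.27, -0.37 and -0.35 in WT. The rise of Utp20 in KO at 6 h, 0.66 (adjusted p = 0.0474), was lost without KO replicate 1, its high array (0.43, adjusted p = 0.116), and the genotypes overlapped at 6 h. The 8 genes left in this role did not pass. Nol6, Utp14a, Wdr3 and Nol10 are further parts of the processome, Nop14 and Noc4l form a complex in it, Rrp12 serves export of the small subunit, and Nob1 makes the last cut at the end of its RNA. KO minus WT ran from -0.74 to -0.04 at 0 h and from 0.00 to 0.37 at 6 h. Rrp12 had the lowest KO minus WT difference of all 45 genes at 0 h, -0.74 (adjusted p = 0.303), with readings of -0.46, -0.54 and -0.35 in KO and 0.12, 0.15 and 0.59 in WT. Wdr3, Utp14a and Nob1 had the smallest differences of these, at 0.00, 0.05 and 0.01 at 6 h.

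**Figure D4:**
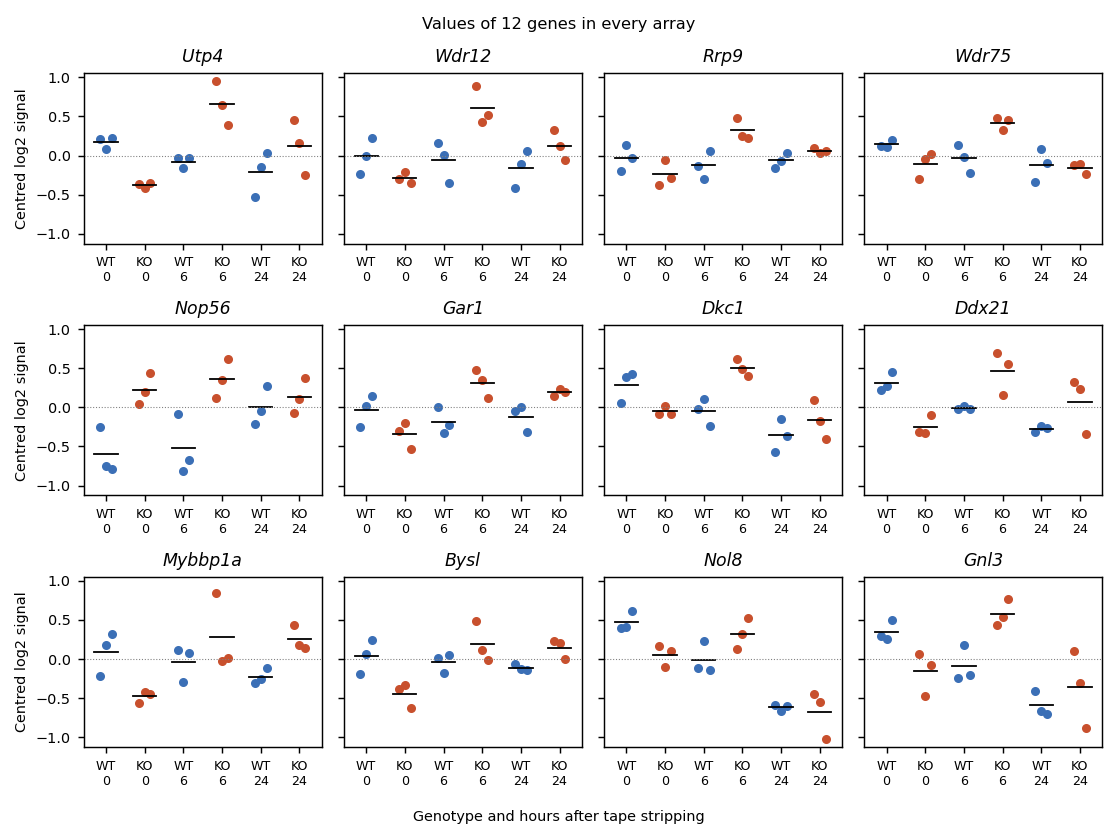
Centred log2 signal of 12 of the genes in every array, KO in red and WT in blue, by genotype and hours after tape stripping, with the group mean as a bar. In Utp4 all KO points at 6 h lie above all WT points, and in Mybbp1a a single KO point lies high at 6 h.

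For the large subunit, Bop1, Pes1 and Wdr12 form the PeBoW complex, which is needed to cut and fold the middle part of the precursor. Wdr12 at 0 h read -0.30, -0.21 and -0.34 in KO and -0.23, -0.01 and 0.23 in WT. Wdr12 at 6 h read 0.89, 0.42 and 0.51 in KO and 0.16, 0.01 and -0.35 in WT. Wdr12 at 24 h read 0.33, 0.12 and -0.06 in KO and -0.41, -0.11 and 0.06 in WT. All KO arrays of Wdr12 at 6 h lay above all WT arrays and above all KO arrays at 0 h. Wdr12 was higher in KO at 6 h by 0.67 log2 (SE 0.164, limma adjusted p = 0.0481) and rose from 0 h by 0.89 (1.86-fold, adjusted p = 0.0122). Bop1 read -0.18, -0.38 and -0.41 in KO and -0.15, 0.10 and 0.27 in WT at 0 h, 0.64, 0.11 and -0.13 in KO and 0.19, -0.20 and -0.10 in WT at 6 h, and 0.57, 0.11 and 0.11 in KO and -0.02, -0.02 and 0.02 in WT at 24 h. Bop1 lay below WT in all KO arrays at 0 h and above it in all at 24 h, and rose by 0.59 (adjusted p = 0.0471) over that time. Pes1 did not pass, with 0.43 (adjusted p = 0.0596) for the same change. Rrs1 helps bring a small ribosomal RNA and its proteins to the large subunit. Rrs1 read -0.33, -0.13 and -0.52 in KO and -0.22, -0.10 and 0.17 in WT at 0 h, 0.45, 0.29 and 0.28 in KO and 0.04, -0.36 and -0.07 in WT at 6 h, and 0.02, 0.46 and -0.02 in KO and 0.20, -0.15 and 0.09 in WT at 24 h. Rrs1 in KO at 6 h lay above all WT arrays of that time and above KO at 0 h, and it rose by 0.66 (adjusted p = 0.022). A second row of Rrs1 gave 0.32 (adjusted p = 0.223) for this change, with the arrays of the times overlapping. Ppan acts early on the large subunit. Ppan read -0.10, -0.29 and -0.19 in KO and -0.26, 0.02 and 0.19 in WT at 0 h, 0.50, 0.13 and 0.30 in KO and 0.28, 0.13 and -0.02 in WT at 6 h, and 0.44, 0.23 and -0.02 in KO and -0.02, -0.12 and -0.22 in WT at 24 h. Its genotypes overlapped at each time, but all KO arrays at 6 h lay above those at 0 h, and the rise of 0.51 passed (adjusted p = 0.0405). A second row of Ppan did not show it, with 0.043 (adjusted p = 0.924) for the same change.

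Nol8 and Noc3l were among the 14 of 45 genes whose means at 24 h lay below 0 h in both genotypes (25.1% of all rows). Ncl, Nop58, Gnl3, Nop14 and Utp14a were also among them. Nol8 is a nucleolar RNA-binding protein, and Noc3l belongs to a complex that moves early large subunits out of the nucleolus. Nol8 at 0 h read 0.17, -0.10 and 0.10 in KO and 0.40, 0.41 and 0.61 in WT. Nol8 at 6 h read 0.13, 0.32 and 0.52 in KO and -0.12, 0.23 and -0.15 in WT. Nol8 at 24 h read -0.45, -0.55 and -1.03 in KO and -0.58, -0.66 and -0.60 in WT. The mean of Nol8 was highest in WT at 0 h and lowest at 24 h in both genotypes, with all arrays at 24 h below all arrays of the other times. It fell from 0 h to 24 h by 1.09 log2 in WT (SE 0.143, adjusted p = 0.0418) and by 0.73 in KO (adjusted p = 0.00633), and the difference between these falls, 0.35 (adjusted p = 0.65), did not pass. Noc3l read -0.15, 0.00 and -0.06 in KO and 0.26, 0.38 and 0.33 in WT at 0 h, 0.47, 0.23 and 0.13 in KO and 0.05, 0.13 and 0.00 in WT at 6 h, and -0.15, -0.20 and -0.87 in KO and -0.60, -0.27 and -0.44 in WT at 24 h. Noc3l was also below 0 in all arrays at 24 h, with KO replicate 3 the lowest, and it fell from 6 h to 24 h in KO by 0.68 (adjusted p = 0.0415). KO replicate 3 at 24 h was the lowest of its group for Nop58, Nol8, Gnl3, Noc3l, Ncl and Nop14, from -1.05 to -0.68. Nop2, a methyltransferase of the large ribosomal RNA, Ftsj3, another methyltransferase, Nol9, a kinase that acts on cut precursor ends, and Nop16, Noc2l, Rrp1b and Rrp15 did not pass in any comparison; KO minus WT of these 7 ran from -0.60 to -0.16 at 0 h and from 0.07 to 0.55 at 6 h.

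The rest of the pathway was read from lists of other genes, none of them among the 48. In KO from 0 h to 6 h, 3 of 37 other factors of the small subunit rose (Wdr46 0.87, Pno1 0.95, Ltv1 0.55), 9 of 42 of the large subunit (led by Nip7 at 0.89, Ebna1bp2 at 0.72, Lsg1 at 0.41 and Rsl1d1 at 0.57), 1 of 10 snoRNP assembly factors (Naf1, 0.67) and 3 of 12 parts of the RNA exosome, which trims precursor RNA (Exosc3 0.62, Exosc8 0.71, Mphosph6 0.64). None fell in these lists, and their medians were 0.24, 0.39, 0.29 and 0.30 against 0.02 over all rows. By the same test 1.57% of all rows rose. Higher in KO than in WT at 6 h were 4 of 42 large subunit factors (Nip7 0.67, Rsl24d1 0.78, Rsl1d1 0.57, Lsg1 0.41; the KO arrays at 6 h are shared with the comparison just given), Exosc8 (0.83), Mphosph6 (0.69) and Naf1 (0.53). None of the 37 other small subunit factors passed in that comparison, with 28 differences above 0 and 9 below. By the same test 0.366% of all rows were higher. Ribosomal proteins are what these factors assemble with the RNA. Of 60 cytosolic ribosomal protein genes none passed limma's test in KO from 0 h to 6 h, with a median of 0.13 and 15 higher and 0 lower at an unadjusted p under 0.05 (9.2% of all rows were higher), and 50 of 60 above 0. None passed at 6 h between genotypes (median 0.05, 8 higher and 0 lower at an unadjusted p under 0.05, against 5.66% and 10.1% of all rows). Whether they differ from the 45 genes was not tested. Of 19 genes of RNA polymerase III, which makes the smallest ribosomal RNA and the transfer RNAs, none passed in either comparison, with medians of 0.01 and -0.02; at an unadjusted p under 0.05, 2 were higher in KO at 6 h than at 0 h and 2 were lower in KO than in WT at 6 h. Of mitochondrial ribosomal protein genes 3 of 71 rose in KO at 6 h (1.57% of all rows) and 16 at 24 h (3.09%), when 1 fell (6.47%). Their medians were 0.26 and 0.30. Among genes that supply growth, those that rose in KO at 6 h were 7 of 33 translation factors (Eef1e1 1.21, Eif3b 0.67, Eif3c 0.32, Eif3d 0.50), 6 of 22 enzymes of purine and pyrimidine synthesis (Ctps 0.77, Nme1 1.06, Shmt1 0.53, Impdh1 0.54) and 2 of 7 of polyamine metabolism (Smox 0.79, Srm 1.20). The share of all rows that rose was again 1.57%. Smox was also the 1 gene of all these lists that was lower in KO at 0 h, by 0.90 (adjusted p = 0.0399), where 0.085% of all rows passed as lower. Change in KO exceeded change in WT by the test of the difference for Smox (1.04), Ctps (0.96), Gmps (0.85) and Eif3c (0.55). By that test 0.234% of all rows passed as higher.

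**Figure D5:**
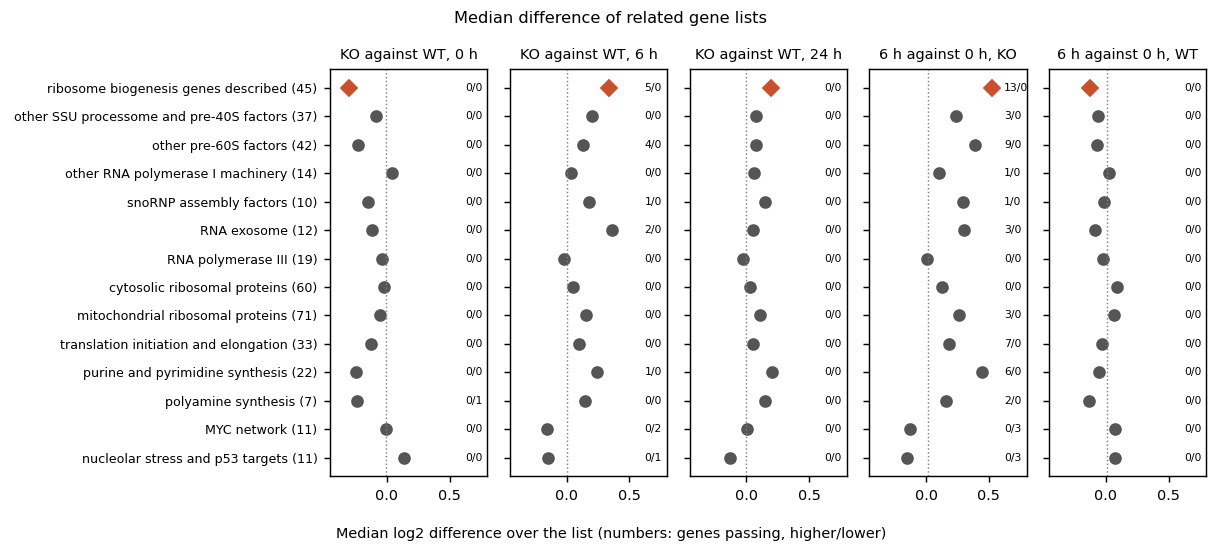
Median log2 difference over the 45 genes (red diamonds) and over 13 related gene lists (grey points, with the number measured in brackets) in 5 comparisons. The figures at the right of each row count genes passing limma's test as higher and lower. From 0 h to 6 h in KO the median is 0.52 for the 45 genes and 0.13 for cytosolic ribosomal proteins.

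MYC and its relatives bind the E-box, some as activators and others, the MXD proteins and MNT, as repressors that compete for their partner MAX. Myc did not pass in any comparison. Myc at 6 h read -0.21, -0.18 and -0.19 in KO and 0.11, 0.11 and 0.11 in WT, with all KO arrays below all WT arrays, and KO minus WT was -0.30 (adjusted p = 0.127). At 0 h and 24 h it was 0.05 and 0.09. Mxd4 read 0.28, 0.23 and 0.14 in KO and -0.15, -0.02 and 0.02 in WT at 0 h, -0.38, -0.53 and -0.33 in KO and 0.20, 0.23 and 0.40 in WT at 6 h, and -0.47, -0.28 and -0.05 in KO and 0.08, 0.13 and -0.09 in WT at 24 h. In Mxd4 all KO arrays lay above WT at 0 h and below it at 6 h, the opposite order to that of the ribosome biogenesis genes. It was lower in KO at 6 h by 0.69 log2 (SE 0.0987, adjusted p = 0.00726), fell in KO from 0 h by 0.63 (adjusted p = 0.00805), and its response differed between genotypes by -0.96 log2 (SE 0.14, limma adjusted p = 0.0166). Mycl, a further MYC paralogue, was lower in KO at 6 h by 0.35 (adjusted p = 0.0318) and fell from 0 h by 0.30. Mga fell in KO by 0.55 at 6 h and 0.92 at 24 h. From 0 h to 24 h in KO Mxd4 fell by 0.49 (adjusted p = 0.00768) and Mycn rose by 0.38. The other genes of this list gave no call at 6 h between genotypes: Max 0.14, Mlx 0.19, Mnt -0.25, Mxd1 -0.04, Mxd3 -0.16, Mxi1 0.42. Mga and Mycn gave no call in that comparison either. Mxi1 has 2 rows, of which the more variable was read. KO minus WT of Mxi1 at 0 h was 0.73 (limma adjusted p = 0.204), so unlike Mxd4 it lay above WT at both 0 h and 6 h. Of 11 genes tied to p53 and to stress of the nucleolus, 3 fell in KO at 6 h (Mdm4 -0.94, Sesn1 -0.57, Btg2 -0.49) and Btg2 was lower than in WT, by 0.61. By the same tests 802 of all 23521 rows fell in KO at 6 h, and 427 were lower in KO than in WT.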

How the data were processed

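Epidermis of 18 samples was read on arrays, and the 6 groups of 3 come from the sample titles. The authors deposited 1 table of values, taken here as log2, of 33793 rows by 18 arrays. In it 0 columns belong to samples outside the series. The values run from -6.4 to 4.3, every row has a median of 0, and array medians lie between -0.0187 and 0.0107. Background correction, summarisation and normalisation: not given in the sources used here. The platform's probe table names 1 gene for 23521 rows (22180 genes), several for 1814 and none for 8458. For a gene with several rows the most variable was used. Group means were fitted to all arrays with limma 3.58.1 in R 4.3.3 (12 residual and 2.76 prior degrees of freedom) for 12 comparisons, with Benjamini-Hochberg adjustment over the 23521 rows; passing means an adjusted p under 0.05. The number of arrays limits the precision, and an exact permutation test of 3 against 3 arrays cannot go below 0.1. Genes and lists were chosen with earlier results of these data known, and counts over them are descriptions. All 18 values are given for genes that passed in any comparison and for the gene of smallest p in each role. Other lists are given by counts with up to 4 names by p, and every gene of the MYC network is named. Sequences are RefSeq's: short E-box stretches, and the windows before Gar1 and Ddx21. The fit was tested on simulated data. Same-numbered arrays deviated with correlations from -0.458 to 0.251, so replicate numbers do not pair them. The alternatives were a second quantile normalisation, arrays shifted to a median of 0, all rows, the mean of a gene's rows, robust and weighted fits, the compared groups alone, blocks for the replicate or label number, the label number classes apart, and each array left out.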

Additional observations from a re-analysis of the deposited data

Results flagged for a closer look

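The change from 0 h to 6 h differed between genotypes, by limma's test of that difference, in 4 of the 45 genes. KO change minus WT change was 0.82 log2 in Gar1, 0.89 in Dkc1, 1.03 in Ddx21 and 1.29 in Utp4, and in each of the 4 the KO mean lay below WT at 0 h and above it at 6 h. A second row of Ddx21 gave a difference of 0.22, which did not pass. Among the related lists the same test was passed by Eif3c (0.55), Gmps (0.85), Ctps (0.96) and Smox (1.04), whose signed change in KO lay above that in WT. Mxd4 (-0.96) passed it too, with a signed change in KO below that in WT.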

How the results depend on the processing

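The 1 call of a gene that held under every alternative run was the fall of Nol8 in KO from 0 h to 24 h. The median over the 45 genes kept its direction in all 12 comparisons and alternatives run except the WT change from 0 h to 6 h, -0.13, which was 0.072 with only label numbers from 3000 up, 1 array at each time. The counts that follow are genes passing limma's test. A second quantile normalisation gave 1 for KO against WT at 6 h (5 as reported), 12 for 24 h against 0 h in KO (7), 8 in WT (1) and 1 for 24 h against 6 h in KO (5). All rows tested gave 1 at 6 h, 3 for 24 h against 6 h in KO and 1 for the genotype difference of the change to 6 h (4). The mean over a gene's rows gave 2 for 24 h against 0 h in WT. A robust fit gave 2 at 6 h, 0 for 24 h against 0 h in WT and 1 for the difference. Array weights gave 4 at 0 h (0), 16 and 6 for 24 h against 0 h in KO and WT, and 15 for the difference. Fitting the compared groups alone gave 0 at 6 h, 7 for 6 h against 0 h in KO (13), 15 for 24 h against 0 h in KO, 0 for 24 h against 6 h in KO and 2 for the difference. Arrays shifted to a median of 0 gave 4 at 6 h. With the replicate block the counts were 0 at 6 h, 0 for 24 h against 0 h in WT, 0 for the difference and 10 for 6 h against 0 h in KO; the numbers do not pair the arrays, so this says nothing of the size of an effect. The label number as a block gave 2 for 24 h against 6 h in KO. Only numbers below 3000 gave 9 at 6 h, 0 for 6 h against 0 h in KO and 2 for the difference. Only numbers from 3000 up gave 0 at 6 h, 20 and 11 for 6 h and 24 h against 0 h in KO, 0 for 24 h against 0 h in WT, 0 for 24 h against 6 h in KO and 0 for the difference. These class fits rest on few arrays: at 6 h only KO replicate 1, the array that stands apart, has a number from 3000 up, against 1 WT array, and below 3000 KO at 0 h has 1 array, so the spread of a lone array is taken from the groups with several. Leaving out 1 array gave 0 to 7 at 6 h, 4 to 13 for 6 h against 0 h in KO, 1 to 9 and 0 to 0 for 24 h against 0 h in KO and WT, 0 to 7 for 24 h against 6 h in KO and 0 to 10 for the difference. Fewer arrays enter the subset fits; otherwise the cause was not tested. Values were centred by row, so signal over background could not be used to judge dim rows.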
